A study of Mus musculus with 2 samples.

Results

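The genes described are the 10 genes of the MHC class II pathway measured in single cells of mouse thymus, taken by symbol from the 32285 features of both count matrices. They are Cd74 (the invariant chain), the chains of the peptide-presenting molecules (H2-Aa, H2-Ab1 and H2-Eb1), the chains of the peptide editor H2-M (H2-DMa, H2-DMb1 and H2-DMb2), the chains of its inhibitor H2-O (H2-Oa and H2-Ob), and the transactivator Ciita. All 10 were found. They were chosen by name, with earlier results of these data known.

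The cKO library came from Tbx21Cre Rosa26-YFP+ mice with both alleles of Ets1 floxed (Ets1 F/F), and the control library from Tbx21Cre Rosa26-YFP+ mice. Both libraries therefore carry the Cre transgene and the YFP reporter. Cre here follows Tbx21, which encodes T-bet, so YFP marks any cell that has expressed Tbx21 and is not specific to T cells. YFP+ thymus cells were sorted, and the labels call them iNKT1 cells, invariant NKT cells that express T-bet. Each library pooled 2 mice, with no map from cells to mice, and no age of the mice was found in the labels. There was 1 library per genotype, so no test was made, and every interval below is a 95% interval that covers counting error only.

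MHC class II molecules present peptides from internalised proteins to CD4+ T cells. The invariant chain occupies the groove of a new class II molecule, cathepsins trim it to a short fragment, and H2-M exchanges that fragment for other peptides, while H2-O restrains H2-M. In mice the genes are expressed mainly by B cells, dendritic cells, macrophages and thymic epithelium, and resting mouse T cells are known to make very little of the presenting chains. Ciita does not bind DNA itself. It is recruited by RFX and NF-Y complexes that sit on the X and Y boxes of class II promoters.

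Apart from Cd74 and Ciita, the genes lie in 1 stretch of chromosome 17, from H2-Oa (start 34092340) to H2-Eb1 (end 34316674), on GRCm38 in the GENCODE vM21 annotation. Of the 10 genes, H2-Ab1, Ciita and Cd74 were left out of the promoter search, so the shares of members below leave them out too. Promoter sequence (250 bases before to 50 bases after a RefSeq start, GRCm38.p6) was searched for the other 7 genes. Windows of 60 bases are shown for 6 of them, of which 5 hold the spaced pair of motifs through which Ciita is known to act, and H2-DMb2 is shown for comparison with H2-DMb1. Capitals mark ATTGG, the core of the Y box, and, where present, GNAAC, letters from the X box, placed 20 to 30 bases upstream of it. The windows lie on chromosome 17 and read in the direction of the gene.
H2-Aa (chr17:34287857-34287916, minus strand): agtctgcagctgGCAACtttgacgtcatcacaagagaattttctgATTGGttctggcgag
H2-Eb1 (chr17:34305763-34305822, plus strand): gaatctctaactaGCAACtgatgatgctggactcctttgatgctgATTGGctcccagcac
H2-DMb1 (chr17:34153085-34153144, plus strand): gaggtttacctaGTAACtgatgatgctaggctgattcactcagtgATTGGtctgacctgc
H2-DMb2 (chr17:34145114-34145173, plus strand): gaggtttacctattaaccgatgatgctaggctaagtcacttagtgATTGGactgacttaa
H2-Oa (chr17:34092291-34092350, plus strand): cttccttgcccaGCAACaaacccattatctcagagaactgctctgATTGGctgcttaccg
H2-Ob (chr17:34238803-34238862, plus strand): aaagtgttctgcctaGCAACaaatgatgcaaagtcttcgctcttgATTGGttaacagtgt
ATTGG, searched on both strands, was found in all 7 promoters and in 41.1% of 27025 genes with a promoter in the table. GNAAC followed by ATTGG at that spacing was found in 5 of the 7, against 2.18% of all genes. The 2 without the spaced pair were H2-DMb2 and H2-DMa, and for H2-DMa the ATTGG lay at the second of its starts, 198 bases upstream of it. In the windows shown, the ATTGG lay 43 (H2-Oa) to 90 bases (H2-DMb2) before the start. A match of letters is a description and not a site.

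The cKO matrix held 11206 barcodes and the control matrix 10102. After barcodes under 500 genes or over 10% mitochondrial UMIs were left out, 5903 cKO cells with a median of 5533 UMIs and 7395 control cells with a median of 2666 UMIs remained. Of the barcode sequences, 29 occurred in both libraries, 14 of them among kept cells of both. The cells were put into classes by 1 or more UMI of a defining gene: T cells by Cd3d, Cd3e or Cd3g (3597 cKO and 7143 control cells), B cells by Cd79a without CD3 (311 and 55), gut-led barcodes by Epcam without either (1596 and 6), and other class II high cells by the 4 abundant class II genes (58 and 8), which left 341 and 183 cells. Gut-led barcodes made 27.0% of the kept cKO cells and 0.0811% of the kept control cells, and T cells 60.9% and 96.6%. In the cKO library the gut-led barcodes held UMIs of all 12 gut epithelium markers, at a summed 90139 CPM (the count scaled to a fixed total of UMIs of the class), among them the bile acid-binding protein gene Fabp6. In the control library 11 of the 12 markers were at 0 in its 6 Epcam barcodes, so that the name does not hold there. Ets1, the floxed gene, stood at 170 CPM in cKO T cells and 499 CPM in control T cells (0.340-fold, interval 0.329 to 0.351), and at 128 CPM in cKO B cells and 211 CPM in control B cells (0.605-fold, 0.466 to 0.802). The libraries read 3' ends and the labels do not name the floxed exons, so these levels may not measure the deletion.

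In B cells the class II genes were among the abundant transcripts of both libraries and stood close together. Summed over the 10 genes, the level was 23203 CPM in cKO B cells and 20147 CPM in control B cells. Cd74 had 10839 CPM (10688 to 10990) in cKO B cells and 10520 CPM (10181 to 10867) in control B cells. H2-Aa, the alpha chain of I-A, had 3646 CPM in cKO B cells and 2919 CPM in control B cells. Its partner H2-Ab1, the I-A beta chain, had 3279 CPM in cKO and 2555 CPM in control, and H2-Eb1, the I-E beta chain, had 3448 CPM in cKO and 2506 CPM in control. UMIs count 1 3' end per molecule whatever its length, so these values are not scaled by transcript length. Other differences between genes in how their reads are captured or assigned were not tested. The chains of the presenting molecules reached 30.3% to 33.6% of the Cd74 UMIs in cKO and 23.8% to 27.7% in control, and the control levels of H2-Ab1 (2389 to 2729) and H2-Eb1 (2342 to 2678) did not differ beyond their intervals.

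The editing genes were lower by an order of magnitude. H2-DMa, the alpha chain of H2-M, stood at 398 CPM in cKO B cells and 390 CPM in control B cells. Of the beta chain genes of H2-M, H2-DMb2 stood at 540 CPM in cKO and 457 CPM in control, and H2-DMb1 at 82.4 CPM in cKO and 89.6 CPM in control. Within either library H2-DMb2 was therefore the more abundant of the pair in B cells. For H2-O, H2-Oa stood at 290 CPM in cKO and 228 CPM in control, and H2-Ob at 454 CPM in cKO and 298 CPM in control. Ciita, the transcription factor's own transcript, stood at 227 CPM (206 to 250) in cKO B cells and 185 CPM (142 to 236) in control B cells. In control B cells the intervals of neighbours by level overlapped for H2-DMb2 and H2-DMa, for H2-DMa and H2-Ob, for H2-Ob and H2-Oa, and for H2-Oa and Ciita. The transcripts of H2-DMb1 and H2-DMb2 in the annotation are 94.6% identical over 1219 aligned bases, and 89.2% over the 334 bases aligned in their last 500, so the division of UMIs between them is uncertain.

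**Figure D1:**
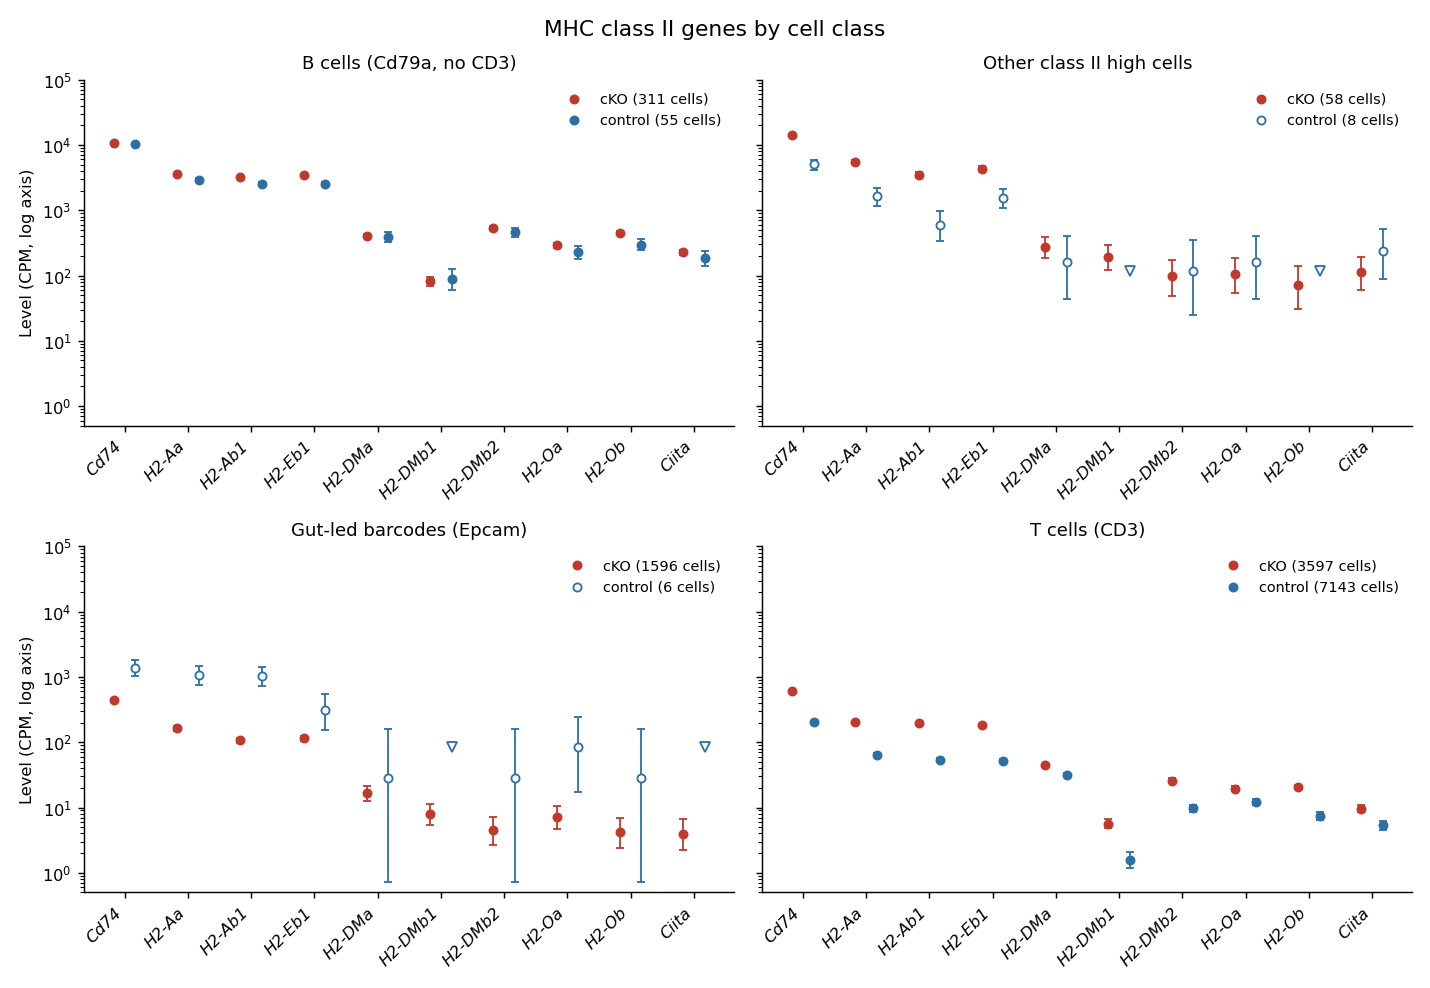
Level of each class II gene (CPM, log axis) in 4 cell classes, cKO (red, left) beside control (blue, right), with exact 95% Poisson intervals of the summed UMIs. Open circles are classes of under 50 cells, and an open triangle marks a count of 0 at the level that 3 UMIs would give; B cells of both libraries lie almost together, and in T cells all 10 genes are higher in cKO.

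A change was called by size: a ratio of CPM, cKO over control, of at least 1.5 either way, 20 CPM in the higher library, and an interval of the ratio that leaves out 1. All 10 genes reached 20 CPM in B cells. H2-Ob alone met the rule, at 1.52-fold (1.24 to 1.89), so 1 of 10 was higher and 0 lower, where 14.1% of the 6081 genes that reached 20 CPM were higher and 5.43% lower. H2-Eb1 was 1.38-fold (1.28 to 1.48), H2-Ab1 1.28-fold (1.20 to 1.38) and H2-Aa 1.25-fold (1.17 to 1.34), below the 1.5 of the rule. Cd74 was 1.03-fold (0.994 to 1.07). The median log2 ratio of the 10 genes was 0.30, beside 0.12 over all genes tested.

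The ratios depended on which barcodes were kept as B cells, in sets chosen after the values were seen. In the cKO library 117 of the 311 B cells also held an Epcam UMI, and these had a median of 1569 UMIs and 6556 CPM of the 10 members together. Of these, 7 cells with 20 or more class II UMIs held 84.2% of the class II UMIs, and the median over the 117 cells was 1004 CPM. The gut epithelium list summed to 11599 CPM in cKO B cells and to 2.89 CPM in control B cells. In the control library 1 cell held 27949 of the 32019 Igkc UMIs of all B cells and 15.2% of their UMIs, and its own class II level was 1636 CPM. Without the Epcam barcodes alone, H2-Eb1 (1.55-fold) and H2-Ob (1.74-fold) met the rule, where 11.6% of all genes were higher and 5.66% lower. Leaving out instead every cell with over 10% Igkc UMIs (8 cKO and 3 control cells) put the sums at 23525 CPM in 303 cKO cells and 23924 CPM in 52 control cells, and H2-Ob at a log2 ratio of 0.40 (0.11 to 0.72), no longer past the rule. With both sets left out, the sums were 26762 CPM in 187 cKO cells and 23924 CPM in 52 control cells, a log2 ratio of 0.16 (0.12 to 0.20), H2-Ob again met the rule at a log2 ratio of 0.61 (0.32 to 0.93), and Cd74 stood at 12376 CPM in cKO and 12359 CPM in control. The log2 ratio of the sum was -0.35 when every B cell was weighted equally and -0.033 without the 5% of cells with most UMIs, beside 0.20 over all B cells.

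**Figure D2:**
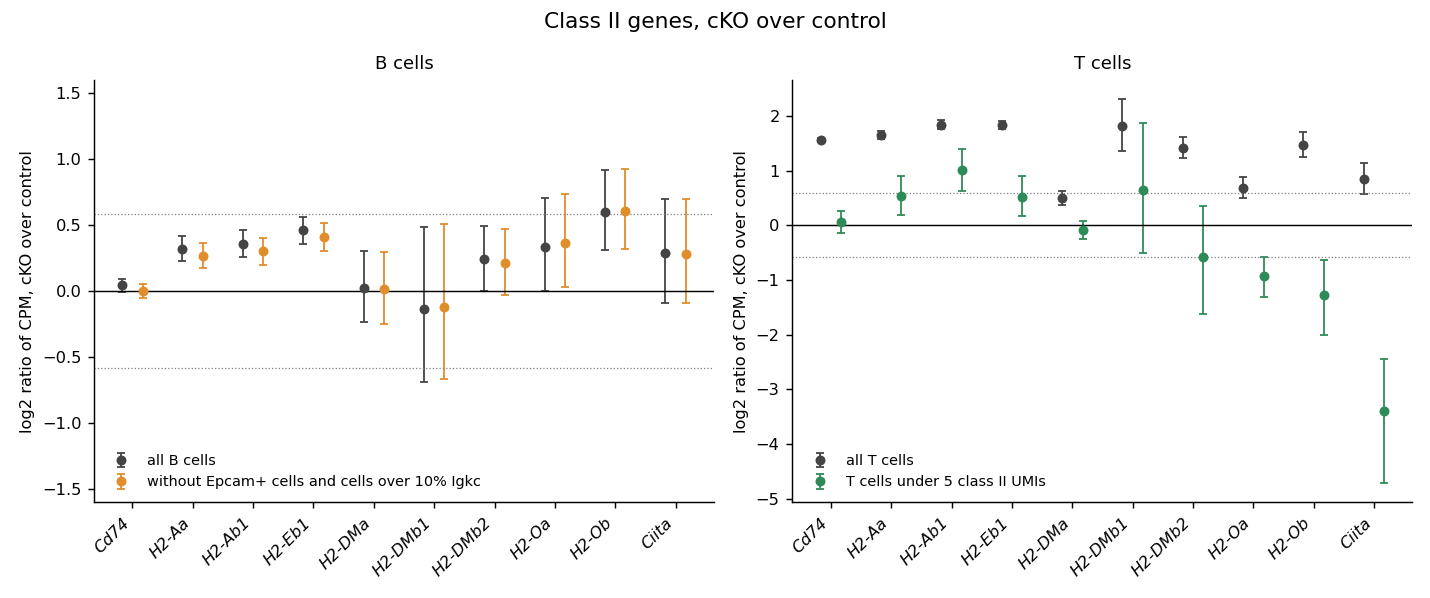
Log2 ratio of CPM, cKO over control, for each class II gene, with exact 95% conditional binomial intervals and dotted lines at a ratio of 1.5 either way: all B cells and B cells without Epcam+ and Igkc-rich cells (left panel), all T cells and T cells under 5 class II UMIs (right panel). In both B cell sets H2-Ob alone reaches the line; in all T cells the 10 genes lie above 0, and in T cells under 5 class II UMIs Ciita lies at a log2 ratio of -3.39.

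Other class II high cells were chosen by Cd74, H2-Aa, H2-Ab1 and H2-Eb1 (5 UMIs and 0.5% of the cell's UMIs), so the levels of these 4 genes are a description. Cd74 stood at 14121 CPM in the 58 cKO cells and 5038 CPM in the 8 control cells. H2-Aa stood at 5476 CPM in cKO and 1626 CPM in control, H2-Eb1 at 4314 CPM and 1547 CPM, and H2-Ab1 at 3513 CPM and 595 CPM. The cells just inside the rule held 0.539% of their UMIs in the 4 genes in cKO and 0.549% in control, and the highest just outside it 0.442% in cKO and 0.464% in control. Of the 8 control cells 7 lay under 1%, against 12 of 58 in cKO. With 8 control cells, and with cells chosen by these same genes, no difference between the libraries is read from these levels.

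In the cKO library these cells held markers of several antigen-presenting types: all 10 macrophage or monocyte markers (6612 CPM in sum, in 27 of 58 cells), all 5 of activated dendritic cells (1294 CPM, in 22), 10 of 11 of conventional dendritic cells (695 CPM, in 30) and all 6 of plasmacytoid dendritic cells (880 CPM, in 30). Lyz2, the lysozyme gene of myeloid cells, stood at 3645 CPM, C1qa, a complement gene of macrophages, at 1004 CPM, and Fscn1, the actin bundler of mature dendritic cells, at 581 CPM. The B cell list summed to 1347 CPM in 27 of the 58 cells, with 9 of its 10 markers found and Cd79a at 0 by the choice of the cells. Of the thymic epithelium list, 3 of 8 markers were found, at 70.4 CPM in 6 cells, and Foxn1, Aire, Psmb11, Krt5 and Krt14 were at 0. The part of these cell types in the class II levels was not tested. Gut markers were present too, at 1946 CPM in 32 of the 58 cells. Of the plasmacytoid sum Bst2 made 431 CPM, and Siglech was found in 5 cells. The cKO gut-led barcodes also held every marker of the macrophage, activated, conventional and plasmacytoid dendritic cell lists, at 229, 22.4, 24.8 and 532 CPM in sum. In the 8 control cells the macrophage or monocyte markers were at 0. There the T cell list summed to 873 CPM (6 cells) and the NK cell list to 2261 CPM (5 cells).

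The genes that had not chosen these cells showed another composition than in B cells. H2-DMb1 stood at 194 CPM (121 to 293) and H2-DMb2 at 96.8 CPM (48.3 to 173) in the cKO cells, intervals that overlap. H2-DMb1 made up 66.7% of the UMIs of the pair (22 of 33, interval 48.2% to 82.0%), against 13.2% (11.3% to 15.3%) in cKO B cells and 16.4% (11.4% to 22.5%) in control B cells. The interval in the class II high cells includes equal shares and lies above those of B cells. H2-DMa stood at 273 CPM, H2-Oa at 106 CPM, H2-Ob at 70.4 CPM and Ciita at 114 CPM. In the 8 control cells these 6 genes lay between 0 (H2-DMb1 and H2-Ob) and 238 CPM (Ciita, 6 UMIs). H2-O genes gave 23.8% (15.2% to 34.3%) of the UMIs of H2-O and H2-M together in the cKO class II high cells, against 42.1% (40.4% to 43.9%) in cKO B cells. The share was 36.0% (31.8% to 40.3%) in control B cells and 28.3% (21.3% to 36.2%) in cKO gut-led barcodes. Both of these intervals overlap that of the class II high cells. In mice, H2-O is known mainly from B cells and some dendritic cells.

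Gut-led barcodes of the cKO library carried class II UMIs at a low level that rested on few barcodes. Cd74 stood at 445 CPM (424 to 467), H2-Aa at 163 CPM, H2-Eb1 at 115 CPM, H2-Ab1 at 107 CPM, H2-DMa at 16.5 CPM and the other 5 genes between 3.99 CPM (Ciita) and 7.99 CPM (H2-DMb1), for a sum of 874 CPM over the 10 genes. Of the 1596 barcodes 841 (52.7%) held no class II UMI, and 17 barcodes with 15 or more held 52.7% of all the UMIs. Those 17 had Lyz2 at 3713 CPM, Igkc at 54.9 CPM, and H2-DMb1 above H2-DMb2 (16 and 8 UMIs). Without barcodes of 5 or more class II UMIs the sum was 322 CPM, of which Cd74 made 185 CPM, while Igkc, an immunoglobulin light chain gene, stood at 573 CPM and Cd79a at 0, the choice of these barcodes having excluded it. By the leading gut gene, Cd74 stood at 384 CPM in the 880 barcodes led by Fabp6, at 267 CPM in the 375 led by Zg16, a goblet cell gene, at 188 CPM in the 197 led by Defa24, a Paneth cell defensin gene, and at 1156 CPM in the 144 led by none of the 3. In the control library 1 of the 6 Epcam barcodes held 140 of their 141 class II UMIs, and no comparison was made.

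In T cells all 10 class II genes had higher levels in the cKO library. Cd74 stood at 605 CPM in cKO T cells and 205 CPM in control T cells (2.95-fold, 2.86 to 3.03). H2-Aa stood at 204 CPM in cKO and 64.8 CPM in control (3.14-fold), H2-Ab1 at 194 CPM and 54.2 CPM (3.58-fold), and H2-Eb1 at 186 CPM and 52.2 CPM (3.57-fold). H2-DMb2 stood at 25.9 CPM in cKO and 9.68 CPM in control (2.67-fold), and H2-Ob at 20.6 CPM and 7.39 CPM (2.78-fold). These 6 met the size rule, of the 7 genes that reached 20 CPM, where 13.2% of all 5965 genes tested were higher and 4.69% lower. H2-DMa, at 44.3 CPM in cKO T cells and 31.3 CPM in control T cells (1.41-fold, 1.299 to 1.54), did not. H2-Oa, Ciita and H2-DMb1 stayed under 20 CPM, with 19.4 and 12.02 CPM, 9.65 and 5.32 CPM, and 5.67 and 1.597 CPM in cKO and control. Of the B cell genes, 3 of those named here met the rule and 2 did not. Cd79a, a chain of the B cell receptor complex, stood at 89.6 CPM in cKO T cells and 33.3 CPM in control T cells (2.69-fold), Ms4a1, which encodes CD20, at 35.7 CPM and 11.2 CPM (3.19-fold), and Cd79b at 44.5 CPM and 18.5 CPM (2.40-fold). Igkc stood at 2085 CPM in cKO T cells and 2032 CPM in control T cells (1.03-fold) and Ighm, the IgM heavy chain gene, at 394 CPM and 321 CPM (1.23-fold). All 10 markers of the B cell list were found in T cells of both libraries, at a summed 2711 CPM in cKO and 2438 CPM in control, and their part in the class II levels was not tested.

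Those UMIs sat in few cells. Of the T cells, 121 (3.36%) in cKO and 117 (1.64%) in control held 20 or more class II UMIs, and they held 94.8% of the class II UMIs of cKO T cells and 71.4% of those of control T cells. No class II UMI was found in 64.1% of cKO and 75.4% of control T cells. In the cells with 20 or more, Cd79a was found in 106 of 121 in cKO and 99 of 117 in control and stood at 1603 CPM and 1578 CPM, the level of B cell markers in sum was 46132 CPM and 50575 CPM, and the T cell list, which includes the CD3 genes that chose the cells, stood at 1190 CPM and 2378 CPM. In T cells under 5 class II UMIs the T cell list stood at 7795 CPM in cKO and 6758 CPM in control, and Cd79a at 2.34 CPM and 1.68 CPM. The median depth of the cells with 20 or more was 11289 UMIs in cKO and 2576 in control, beside 6938.5 and 2809 in those under 5. Of the control T cells, 207 held 5 to 19 class II UMIs, with Igkc at 82854 CPM, against 40 in cKO with Igkc at 249 CPM. Over T cells without a Cd79a or Epcam UMI the sum of the 10 genes was 130 CPM in cKO and 105 CPM in control, a log2 ratio of 0.30 beside 1.57 over all T cells, and with every T cell weighted equally it was 0.70. No doublet calling was made, and whether such barcodes held more than 1 cell was not tested.

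**Figure D3:**
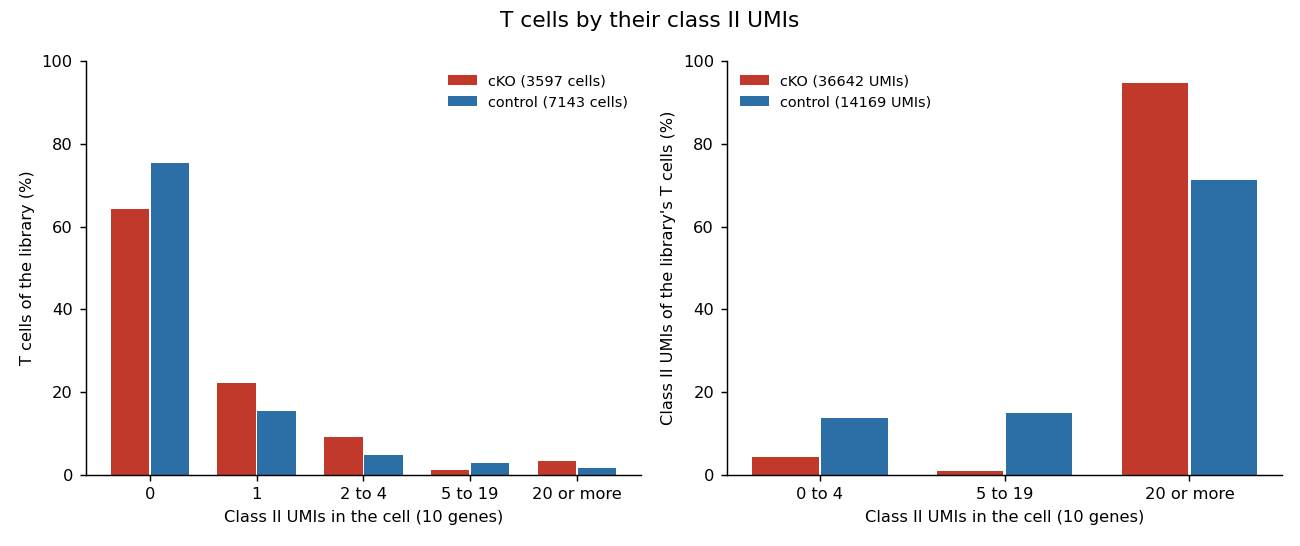
Left, percent of the T cells of each library by the number of class II UMIs in the cell; right, percent of the class II UMIs of those T cells held by cells in 3 ranges, cKO (red, left) beside control (blue, right). Cells with 20 or more are 3.36% of cKO and 1.64% of control T cells and hold 94.8% and 71.4% of the UMIs.

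In T cells thinned to 1500 UMIs, the share with a Cd74 UMI was 6.40% (5.61% to 7.27%) of 3482 cKO cells and 6.10% (5.46% to 6.80%) of 5063 control cells, after 115 cKO and 2080 control cells of lower depth were left out. It was 5.51% in cKO and 6.40% in control at 1000 UMIs, and 8.47% in cKO and 4.45% in control at 3000 UMIs. At 1000 UMIs 38 cKO and 597 control cells were left out, and at 3000 UMIs 316 and 3748. The order of the share thus changed with the depth chosen and with the cells left at that depth. Unthinned, it was 13.5% in cKO and 9.70% in control. In gut-led barcodes of the cKO library, 26.8% of 728 barcodes thinned to 1500 UMIs held a Cd74 UMI, more than in T cells at that depth. For this 868 gut-led barcodes of lower depth were left out, so the deeper gut-led barcodes were set beside most cKO T cells.

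T cells under 5 class II UMIs, 3436 in cKO and 6819 in control, are defined by the genes themselves, so their sums of 60.4 CPM in cKO and 62.5 CPM in control are bounded by that choice. Within them the composition differed from that of B cells. H2-DMa stood at 22.5 CPM (20.8 to 24.4) in cKO and 23.9 CPM (22.2 to 25.7) in control, above Cd74 at 14.7 CPM in cKO and 14.0 CPM in control. H2-DMa thus reached 154% of the Cd74 UMIs in cKO and 171% in control, where in B cells it was 3.68% in cKO and 3.71% in control. In the cKO gut-led barcodes under 5 class II UMIs it was 5.02%. By contrast H2-Aa, H2-Ab1 and H2-Eb1 stood at 36.9% to 41.4% of Cd74 in cKO and 21.5% to 27.7% in control. In the T cells without a UMI of the 4 abundant genes (2773 in cKO and 6239 in control), H2-DMa stood at 24.5 CPM in cKO and 23.7 CPM in control, with 0 of the 1 member that reached 20 CPM past the rule, where 13.8% of genes were higher and 4.87% lower. In T cells under 5 class II UMIs, over depth ranges from 1500 UMIs up, the H2-DMa level lay between 17.7 and 29.5 CPM in cKO and between 20.3 and 25.9 CPM in control. Below 1500 UMIs H2-DMa had 0 UMIs in 110 cKO cells and stood at 24.7 CPM in 1951 control cells. Among T cells under 5 class II UMIs thinned to 1500 UMIs, a UMI of H2-DMa was held by 3.46% (2.86% to 4.14%) of cKO and 3.76% (3.24% to 4.33%) of control cells, beside 2.05% (1.12% to 3.41%) of 684 cKO gut-led barcodes under 5 class II UMIs thinned alike. These 3 intervals overlap, and 110 cKO T cells, 1951 control T cells and 835 gut-led barcodes were left out for lower depth. The annotation places 3 other counted genes over the H2-DMa interval, Brd2 and CR974462.4 on the opposite strand and CR974462.3 on the same strand. The sources used here do not state whether counting used the strand, and the part of these genes in the H2-DMa counts was not tested.

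**Figure D4:**
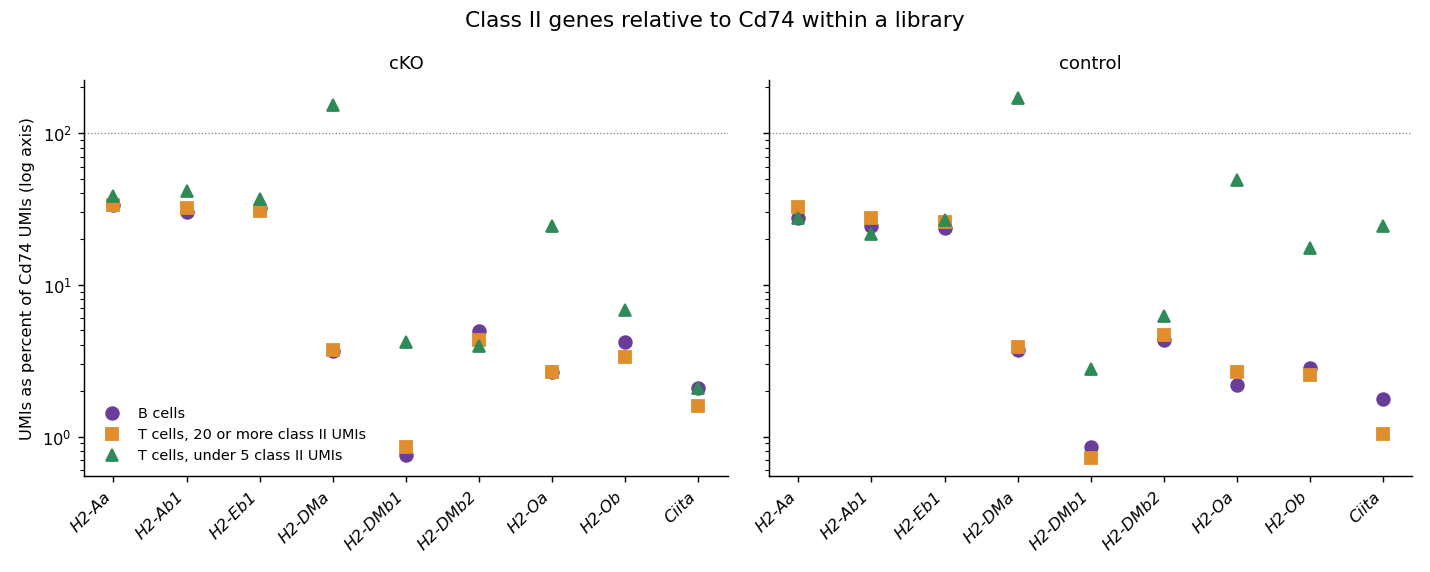
UMIs of each class II gene as a percent of the Cd74 UMIs of the same cells (log axis; dotted line at 100%), in cKO (left panel) and control (right panel), for B cells and T cells with many or few class II UMIs. T cells with 20 or more class II UMIs lie near the B cell values, and in T cells under 5 H2-DMa lies above Cd74 in both libraries.

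No member met the size rule in T cells under 5 class II UMIs, where H2-DMa was the 1 member to reach 20 CPM (0.943-fold, 0.844 to 1.05) and where 13.5% of all genes were higher and 4.91% lower. These cells were chosen by the sum of the same 10 genes, so the choice bounds the level of each single gene too. It is a fixed count of UMIs in cells of unlike median depth, 6938.5 UMIs in cKO and 2809 in control. The part of this choice in the ratios of single genes, here and in the sets drawn from these cells, was not tested. Below 20 CPM, 3 members had ratio intervals wholly under 1. Ciita had 8 UMIs in cKO and 105 UMIs in control, 0.307 CPM (0.133 to 0.605) and 3.40 CPM (2.78 to 4.11), a ratio of 0.0956 (0.0380 to 0.185). H2-Oa had 93 and 211 UMIs, 3.57 CPM in cKO and 6.83 CPM in control (0.525-fold, 0.405 to 0.671). H2-Ob had 26 and 76 UMIs, 0.999 CPM in cKO and 2.46 CPM in control (0.411-fold, 0.2495 to 0.641). In 3 others the interval lay wholly above 1. H2-Ab1 stood at 6.07 CPM in cKO and 3.01 CPM in control (2.01-fold, 1.55 to 2.63), H2-Aa at 5.65 CPM and 3.88 CPM (1.45-fold, 1.13 to 1.87), and H2-Eb1 at 5.42 CPM and 3.75 CPM (1.44-fold, 1.12 to 1.86). Of the B cell genes in the same cells, Igkc stood at 43.1 CPM in cKO and 93.1 CPM in control (0.463-fold) and met the rule as lower, Cd79b stood at 2.96 CPM and 5.21 CPM (0.569-fold, 0.427 to 0.749), and the B cell list, with 10 of 10 markers found in each library, summed to 208 CPM in cKO and 243 CPM in control. Their part in these differences was not tested. Control Ciita lay between 2.59 and 3.97 CPM in each of 5 ranges of depth, and cKO Ciita between 0 and 0.518 CPM. Dexi, which the annotation places on the opposite strand overlapping Ciita, stood at 25.2 CPM in cKO and 39.1 CPM in control (0.646-fold, 0.586 to 0.711) and met the rule as lower. Whether counting used the strand was not stated, and the part of Dexi reads in the Ciita counts was not tested. BC051537, on the opposite strand overlapping H2-Oa, had 1 UMI in cKO and 11 UMIs in control (0.155-fold, 0.00251 to 0.742). Its part in the H2-Oa counts of these cells, and of the sets drawn from them, was not tested. Ciita was held by 0.0601% (0.00728% to 0.217%) of cKO and 0.493% (0.316% to 0.733%) of control T cells of this set thinned to 1500 UMIs, and by 0.585% (4 of 684, 0.160% to 1.49%) of cKO gut-led barcodes under 5 class II UMIs thinned alike, an interval that overlaps both. Ciita stood at 1.69 CPM in cKO gut-led barcodes under 5 class II UMIs and at 1.65 CPM (1 UMI, 0.0418 to 9.20) in the remaining control cells.

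The T cells were also split by other genes, a choice made with these values known. Among T cells under 5 class II UMIs with a Cd8b1 UMI, the CD8 beta chain gene (609 cKO and 862 control cells), H2-Oa had 26 UMIs and 4.47 CPM in cKO and 103 UMIs and 20.2 CPM in control (0.224-fold, 0.138 to 0.342). It was the 1 member past the rule of the 2 that reached 20 CPM, where 22.3% of genes were higher and 6.4% lower. The 103 control UMIs came from 84 cells. H2-Ob had 3 UMIs in cKO and 32 in control there (0.515 and 6.29 CPM), while Cd79a had 1.89 CPM in cKO and 1.77 CPM in control. Cd79b, the partner chain of Cd79a, had 27 UMIs in cKO and 80 UMIs in control, 4.64 CPM and 15.7 CPM (0.299-fold, 0.183 to 0.462), and its part in these values was not tested. Ciita had 2 UMIs in cKO and 12 UMIs in control, 0.344 CPM and 2.36 CPM (0.175-fold, 0.0158 to 0.655). H2-DMa stood at 18.6 CPM in cKO and 20.8 CPM in control. Among such T cells with Klrb1c, the NK1.1 gene (354 cKO and 2491 control cells), H2-Oa stood at 2.80 CPM in cKO and 3.76 CPM in control (0.783-fold, 0.306 to 1.56), and Ciita had 0 UMIs in cKO, where 3 counts would be 1.05 CPM, and 51 UMIs and 3.31 CPM in control. The H2-Oa ratio intervals of the Cd8b1 and Klrb1c cells overlap, and the difference between the sets was not tested. H2-DMa was the 1 member there to reach 20 CPM, at 20.6 CPM in cKO and 21.0 CPM in control, and did not meet the rule, where 16.2% of genes were higher and 7.67% lower. The median depths of the Cd8b1 cells were 8632 UMIs in cKO and 3346.5 in control, and the part of depth in these differences was not tested.

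**Figure D5:**
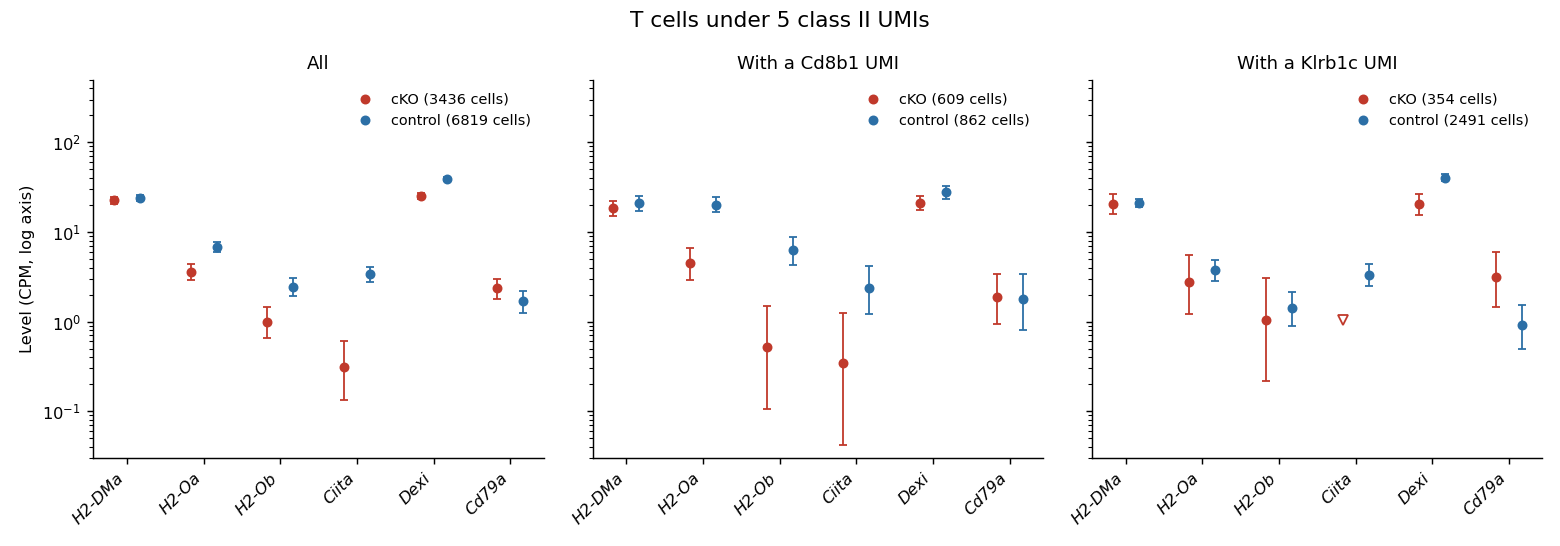
Level (CPM, log axis, exact 95% Poisson intervals) of 4 class II genes, of Dexi and of Cd79a in T cells under 5 class II UMIs, in all of them, in those with a Cd8b1 UMI and in those with a Klrb1c UMI, cKO (red, left) beside control (blue, right). The intervals of H2-DMa overlap between the libraries in all sets, Ciita is lower in cKO, and the triangle marks a count of 0 at the level of 3 UMIs.

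The remaining cells, without CD3, Cd79a or Epcam and under the class II threshold, had Cd74 at 90.04 CPM in 341 cKO cells and 38.0 CPM in 183 control cells. With 72 and 23 UMIs, Cd74 (2.34-fold, 1.47 to 3.97) and H2-Eb1 (2.69-fold, 19 and 5 UMIs) met the size rule among 5 members that reached 20 CPM, where 23.7% of genes were higher and 12.2% lower. H2-DMa had 23.8 CPM in cKO and 33.0 CPM in control, and Igkc stood at 209 CPM in cKO and 47.9 CPM in control. The myeloid gene Lyz2 stood at 86.3 CPM in cKO and had 0 UMIs in control. The macrophage or monocyte list summed to 401 CPM in cKO (10 of 10 markers) and 3.30 CPM in control (1 of 10), the stroma list to 9547 CPM (5 of 5) and 0 CPM, and the gut epithelium list to 9613 CPM (11 of 12) and 3.30 CPM (2 of 12). Their part in the class II levels was not tested.

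Of a list of 24 symbols of the wider class II pathway, 20 were found. In B cells 17 reached 20 CPM, 3 were higher in cKO and 0 lower, with a median log2 ratio of -0.12, where 14.1% of all genes tested were higher and 5.43% lower, with a median of 0.12. Ctsb, a lysosomal protease, stood at 87.9 CPM in cKO B cells and 40.5 CPM in control B cells (2.104-fold, 1.26 to 4.06). Ifi30, which reduces disulfide bonds of proteins to be presented, stood at 621 CPM in cKO and 361 CPM in control (1.71-fold), and Cd83, which holds class II molecules on the surface, at 131 CPM in cKO and 80.9 CPM in control (1.59-fold). The main protease of the invariant chain in B cells, Ctss, stood at 402 CPM in cKO and 306 CPM in control (1.31-fold, 1.07 to 1.63), and H2-Eb2, a relative of H2-Eb1, at 147 CPM in cKO and 107 CPM in control (1.36-fold, 0.975 to 2.00). Without the Epcam barcodes, Ctsb stood at 66.0 CPM in cKO and 40.5 CPM in control (1.58-fold, 0.929 to 3.09) and no longer met the rule, H2-Eb2 met it at 173 CPM in cKO and 107 CPM in control (1.602-fold, 1.15 to 2.35), and Ifi30 (1.84-fold) and Cd83 (1.70-fold) still met it. Of the 17 that reached 20 CPM there, 3 were higher and 0 lower, where 11.6% of all genes were higher and 5.66% lower. In T cells 8 of the list reached 20 CPM and Ctsh alone met the rule, at 20.2 CPM in cKO and 4.41 CPM in control (4.57-fold, 3.80 to 5.55), where 13.2% of genes were higher. In T cells under 5 class II UMIs, Ctsb alone of 7 met it, at 145 CPM in cKO and 96.1 CPM in control (1.51-fold). There 13.5% of all genes were higher and 4.91% lower, and Ctsh stood at 0.614 CPM in cKO and 0.388 CPM in control. In the remaining cells, whose stroma, gut and macrophage lists are given above, 6 of 13 were higher, where 23.7% of genes were higher and 12.2% lower: Ctsl (448 CPM in cKO and 8.26 CPM in control), Ctsb (254 and 74.3), Lgmn (83.8 in cKO and 0 UMIs in control), Ifi30 (75.04 and 13.2), Ctsh (48.8 and 4.95) and Cd83 (27.5 and 1.65). Ctss in T cells stood at 91.3 CPM in cKO and 77.7 CPM in control, and Rfxap, a subunit of the RFX complex, at 42.4 CPM in cKO and 39.5 CPM in control. The other RFX subunits stood at 12.8 CPM in cKO and 10.2 CPM in control (Rfx5) and at 12.9 CPM in cKO and 12.8 CPM in control (Rfxank).

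Over the 8 library-by-class groups of 50 or more cells, the genes whose log2(CPM + 1) followed the sum of the class II genes most closely were, among 5364 candidates, Wdfy4 (Pearson r 0.988), Cyb561a3 (0.987), Spib (0.985), Cacna1s (0.984), Btk (0.980) and Cd180 (0.978). These groups share 2 libraries and differ in depth and cell number. The other class II high cells and the remaining cells were split from each other by 4 of the class II genes themselves. The grouping thus set part of the spread in the sum. Wdfy4, known from cross-presenting dendritic cells, stood at 78.6 CPM in cKO B cells, 150 CPM in the other class II high cKO cells and 75.1 CPM in control B cells, and at 3.91 CPM in cKO T cells and 0.845 CPM in control T cells. Spib, an ETS family factor of B cells and plasmacytoid dendritic cells, stood at 110 CPM in cKO B cells, 79.2 CPM in the other class II high cKO cells and 89.6 CPM in control B cells, and at 4.91 CPM in cKO T cells and 1.75 CPM in control T cells.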

How the data were processed

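YFP+ thymus cells of 1 cKO and 1 control library were read with 10x 3' v2 chemistry, per the labels' protocols. The authors deposited whole-number UMI counts per gene and barcode, made with Cell Ranger 2.1.1 on mm10 per the submitters' processing notes, while the matrix headers name software version 3.0.0. The aligner settings, annotation, strand use and any step against free RNA were not stated there. Barcodes under 500 genes or over 10% mt- UMIs were dropped (kept: 5903 cKO, 7395 control), with no doublet removal. Counts were summed per library and class and divided by all UMIs of the class to give CPM, with exact Poisson 95% intervals. Ratios have exact conditional binomial intervals, with 0.5 added to both counts for the ratio itself, and shares exact Clopper-Pearson intervals. PCR and sampling of cells or mice are not covered, and a count of 0 was set against 3 counts. For shares, cells were thinned to 1500 UMIs with a fixed seed. No test was made. The size rule was tested on simulated data. All 10 members, Ets1, up to 6 pathway genes past the rule per class and the 6 genes most like the sum were named by rule. Ctss, H2-Eb2, the RFX genes, Dexi, Brd2, the other overlapping genes named, and the Cd8b1 and Klrb1c sets were added after their values were seen. The members, lists and classes were chosen with earlier results of these data known. Alternatives covered filters, scaling, weighting, depth, class thresholds and thinning. Promoters are RefSeq's. Scripts ran in Python 3.11.15 with matplotlib 3.10.9, pandas 2.3.3, scipy 1.17.1 and numpy 2.4.6.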

Additional observations from a re-analysis of the deposited data

Results flagged for a closer look

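Class II UMIs were also present in barcodes that the comparisons leave out. Barcodes under 500 genes, 3830 in cKO and 2287 in control, held the 10 members at a summed 2148 CPM in cKO and 1274 CPM in control, with Cd74 at 1141 CPM and 657 CPM, Cd79a at 155 CPM and 93.8 CPM, and Igkc at 2258 CPM and 7375 CPM. H2-DMa made 4.03% of the Cd74 UMIs there in cKO and 5.56% in control, and H2-DMb1 28.9% (20.1% to 39.0%) of the H2-DMb pair in cKO and 8.70% (2.42% to 20.8%) in control. These are values of data outside the main comparison, and what such barcodes hold was not tested.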

How the results depend on the processing

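No paired analysis was possible because each genotype has 1 library. Values are log2 ratios, cKO over control, unless stated. For B cells (0.20) the ratio was 0.076 with no filter, 0.25 from 1000 genes up, 0.73 at 5% mt- UMIs, 0.31 from 3000 UMIs up, 0.39 with 3 Cd79a UMIs, 0.32 with a second B cell gene, 0.074 by median-ratio scaling, and, in settings added after the data were seen, 0.38 without Epcam barcodes, -0.024 without Igkc-rich cells and 0.16 without both. It was -0.033 without the 5% of cells with most UMIs and -0.35 with every cell weighted equally, so its direction turned under 3 of these settings. In T cells (1.57) it was 1.45 with no filter, 1.77 from 1000 genes up, 1.64 at 5% mt- UMIs, 1.83 from 3000 UMIs up, 1.20 without the deepest 5%, 1.07 with 2 CD3 UMIs, 0.30 with no Cd79a and no Epcam UMI, 1.38 with mitochondrial and ribosomal protein genes left out of the total, 0.70 with cells weighted equally, 1.39 by median-ratio scaling, and -0.050 without cells of 5 or more class II UMIs. Other class II high cells, chosen by these same genes and with 8 control cells, or 1 from 1000 genes up, had a descriptive ratio of 1.57, from which nothing on stability is read, and gave 0.83 with no filter, 1.35 from 1000 genes up, 1.81 with cells weighted equally and 2.16 by median-ratio scaling. Gut-led cKO barcodes (874 CPM) gave 762 CPM with no filter, 744 from 1000 genes up, 1670 at 5% mt- UMIs, 691 from 3000 UMIs up, 959 without the deepest 5%, 695 with 2 Epcam UMIs, 1467 with any Epcam barcode, 322 without those of 5 or more class II UMIs (added later), 1098 on the reduced total and 1008 with equal weights. The share of T cells with a Cd74 UMI was 13.5% in cKO and 9.70% in control unthinned, 5.51% and 6.40% at 1000 UMIs, and 8.47% and 4.45% at 3000 UMIs. Its order depends on the depth chosen and on the cells left at that depth. Of 50 single-gene values in B cells 12 moved beyond the main interval and 4 changed sign, none of them past the size rule in the main setting: Cd74 (-0.18, against 0.043) and H2-DMa (-0.19, against 0.026) without Igkc-rich cells, and H2-DMb1 (0.039 from 3000 UMIs up and 0.077 without Epcam barcodes, against -0.14). Of 30 in T cells 5 changed sign, all without cells of 5 or more class II UMIs, a choice made by these same genes: H2-DMa (-0.085), H2-DMb2 (-0.58), H2-Oa (-0.93), H2-Ob (-1.28) and Ciita (-3.39). Beside the last 4, whose main value was past 1.5-fold either way, 17 T cell values moved beyond the main interval. The cause of the other moves was not tested. Depth limits the rarer genes, as 3 UMIs are worth 8.67 CPM in control B cells.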

Other observations

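Cd86, a costimulatory ligand read by CD28 and CTLA-4, stood at 17.0 CPM in cKO T cells and 3.66 CPM in control T cells (4.64-fold, 3.79 to 5.74), under the 20 CPM of the rule. Among T cells under 5 class II UMIs with a Cd8b1 UMI it stood at 46.6 CPM (271 UMIs) in cKO and 5.70 CPM (29 UMIs) in control (8.05-fold, 5.56 to 12.4), where Cd79a stood at 1.89 CPM in cKO and 1.77 CPM in control and Cd79b at 4.64 CPM and 15.7 CPM. Both the gene and the set of cells were picked with these values in view.

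H2-DMb1 made 18.0% (15.5% to 20.7%) of the pair in all cKO T cells and 14.2% (10.7% to 18.2%) in all control T cells, and 63.8% (48.5% to 77.3%) in cKO gut-led barcodes. In T cells under 5 class II UMIs it made 51.6% (33.1% to 69.8%) in cKO and 30.8% (17.0% to 47.6%) in control, over 31 and 39 UMIs.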
